A study of Arabidopsis thaliana with 3 samples.

Results

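The pericentromere of Arabidopsis thaliana chromosome 4, the heterochromatin around its centromere, was described here through the regions enriched for the histone variants H2A.W.6 and H2A.W.7. Its members were all regions of the centromeric lists on chromosome 4 with a midpoint from 2.4 to 6.1 Mb, which leaves out the part of the same lists from 1.4 to 2.4 Mb that holds the heterochromatic knob of the short arm. H2A.W.6 had 1890 such regions and H2A.W.7 had 2711, or 4601 of the 31768 regions of the centromeric lists and of the 43500 regions of the series. Chromatin came from leaves of plants 2 to 3 weeks old, was cut with micrococcal nuclease, which digests the DNA between nucleosomes, and was immunoprecipitated with an antibody to either variant. Each variant was 1 library with no replicate, and 1 control library, whose own values were not analysed here, served as reference. The labels give no genotype, strain or treatment, and the antibody is the only difference between the groups that they name. The lists hold positions without heights or read numbers, so the depth is unknown, and with a single library on either side differences are described without a p-value.

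Heterochromatin is the compact, transposon-rich part of the genome that is kept silent by DNA methylation and histone H3 lysine methylation. Plants have an H2A class of their own there, H2A.W, which is known to favour chromatin condensation, and of whose members H2A.W.7 alone of these 2 carries a motif phosphorylated after DNA breaks. By its title the series deals with DNA damage responses in these types of chromatin, and its lists allow the positions of the variants to be compared. Pericentromeres are known to hold few active genes and many remnants of retrotransposons, and most transposon-derived genes stand in the annotation as pseudogenes.

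H2A.W.6 covered 2.28 Mb of the 3.7 Mb span, or 61.7%, and H2A.W.7 covered 1.70 Mb, or 46.0%. Both variants lay together on 40.5% of the span. A further 0.781 Mb, or 21.1%, had H2A.W.6 without H2A.W.7, and 0.203 Mb, or 5.47%, had H2A.W.7 without H2A.W.6. The remaining 1.22 Mb, or 32.9%, had neither. Seen from either side, 65.8% of the H2A.W.6 bases also had H2A.W.7, and 88.1% of the H2A.W.7 bases also had H2A.W.6. Covered length with H2A.W.7 was 0.746 times that with H2A.W.6, although H2A.W.7 had more regions. Its regions were shorter, with a median of 430 bp against 620 bp and a mean of 628 bp against 1207 bp.

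Beside the centromeric parts of the other 4 chromosomes, cover was within their range, and the mean length of the H2A.W.6 regions was not. Their cover ran from 52.1% to 68.6% for H2A.W.6 and from 40.4% to 51.5% for H2A.W.7, and their Jaccard index (shared bases over bases with either variant) ran from 0.593 to 0.638, against 0.604 here. The ratio of 0.746 lay just under their 0.751 to 0.820, and the 65.8% of H2A.W.6 bases shared with H2A.W.7 just under their 66.1% to 68.5%. The mean H2A.W.6 region of 1207 bp was longer than their 906 to 1066 bp. The median H2A.W.6 region, 620 bp, was within their 530 to 635 bp. So was the longest, 33150 bp, within their 12340 to 56580 bp. H2A.W.6 regions were thus not longer here in general. The longest H2A.W.7 region of 21.73 kb was longer than the longest of each, 9675 to 12635 bp. In the knob part, 1.4 to 2.4 Mb, H2A.W.6 covered 49.2% and H2A.W.7 covered 42.4%. These are values of stretches of the same 2 libraries, and none of these differences could be tested.

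The span was not uniform, and the label of a pericentromere fits its middle better than its ends. In bins of 100 kb, H2A.W.6 covered 50% or more in 23 bins in a row from 2.8 to 5.1 Mb, here called the core, a division made after the values were seen. In the core H2A.W.6 covered 83.4% and H2A.W.7 covered 56.1%, and only 14.0% of the bases had neither. On its left, from 2.4 to 2.8 Mb, the values were 13.4% and 19.2%, with 77.3% of the bases free of both. On its right, from 5.1 to 6.1 Mb, H2A.W.6 covered 30.9% and H2A.W.7 covered 33.5%, and 58.6% had neither. H2A.W.7 thus covered 0.673 times the length of H2A.W.6 in the core, 1.08 times in the right flank and 1.43 times in the left flank. As the core was set by H2A.W.6 cover itself, the division tilts these ratios towards H2A.W.6 in the core and towards H2A.W.7 outside it.

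The left edge of the core was sharp for H2A.W.6. Its cover went from 3.48% at 2.4 to 2.5 Mb through 5.70%, 16.9% and 27.7% to 74.4% at 2.8 to 2.9 Mb, and it reached 96.1%, the highest of the 37 bins, at 3.0 to 3.1 Mb. For H2A.W.7 the same bins read 13.5%, 10.8%, 22.1%, 30.6% and 53.0%, and its cover at 3.0 to 3.1 Mb was 56.6%. H2A.W.7 had its highest value, 80.4%, at 3.9 to 4.0 Mb, where H2A.W.6 covered 92.8%. The right edge of the core was less even, with H2A.W.6 at 51.6% from 4.8 to 4.9 Mb, 82.0% in the next bin, 69.6% from 5.0 to 5.1 Mb and 33.3% in the first bin of the right flank. Within the right flank H2A.W.6 was highest at 5.5 to 5.6 Mb, with 52.1% beside 47.9% for H2A.W.7, and both were lowest at 5.7 to 5.8 Mb, with 7.80% and 18.3%.

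The cover of H2A.W.7 exceeded that of H2A.W.6 in 11 of the 37 bins (29.7%). These were all 4 bins of the left flank, 7 of the 10 of the right flank and 0 of the 23 of the core. The division into core and flanks was made by H2A.W.6 cover, which partly fixes this split. Over the centromeric parts of all 5 chromosomes, this span included, the share of such bins was 26.3%. Bins high in one variant tended to be high in the other, with a Pearson coefficient of 0.897 and a Spearman coefficient of 0.882 over the 37 bins, and with 0.613 and 0.614 over the 23 bins of the core. These are descriptions, as neighbouring bins share the libraries and the control. Protein-coding genes numbered 86 in the 4 bins of the left flank, 60 in the 23 bins of the core and 149 in the 10 bins of the right flank. Spearman's rho between their number and the cover was -0.862 with H2A.W.6 and -0.839 with H2A.W.7 over the 37 bins. Within segments it was weaker, with -0.473 and -0.495 in the core and -0.603 and -0.572 in the right flank. The 4 bins of the left flank gave -0.316 and -0.632.

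**Figure D1:**
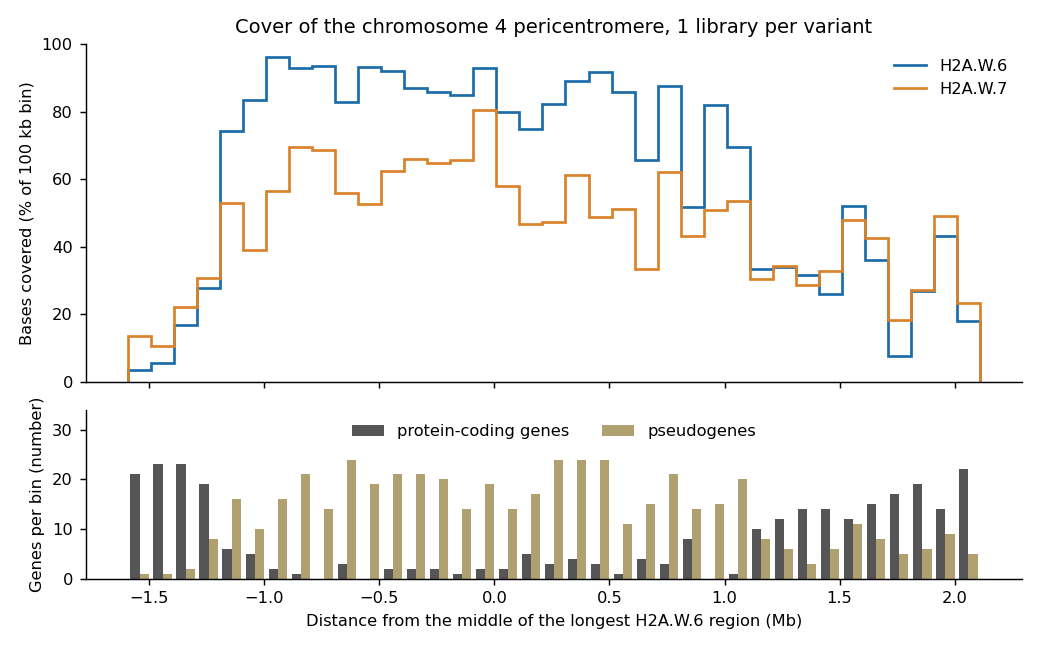
Bases covered by regions of H2A.W.6 and H2A.W.7 in each 100 kb bin (upper panel, percent) and the number of protein-coding genes and pseudogenes with their midpoint in the bin (lower panel), against the distance from the middle of the longest H2A.W.6 region in Mb, with 1 library per variant. H2A.W.6 lies above H2A.W.7 in all 23 bins of the core, and H2A.W.7 lies above in the 4 leftmost bins and in 7 of the 10 rightmost ones. The core was set by H2A.W.6 cover, which favours this order.

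Beyond the ends cover did not stop. In the last 500 kb of the span H2A.W.6 covered 26.4% and H2A.W.7 32.1%, and the first 500 kb of the arm to the right had 7.90% and 13.8%. To the left, the 400 kb next to the span belong to the part with the knob and had 47.5% and 41.7%, so the left flank is a thinly covered stretch between more heavily covered ones. No region crossed a border: the H2A.W.6 regions next to 2.4 Mb were 2398711 to 2399135 outside and 2401156 to 2401360 inside, and the H2A.W.7 regions next to 6.1 Mb were 6098776 to 6099260 inside and 6102381 to 6102870 outside.

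Long domains held much of the H2A.W.6 cover and little of the H2A.W.7 cover. The 68 H2A.W.6 regions of 5 kb or more held 22.6% of the covered bases, and those of 2 to 5 kb held another 31.5%. For H2A.W.7, 12 regions reached 5 kb and held 5.98% of the bases, while regions of 500 to 1000 bp held the largest part, 32.0%. The other chromosomes had 43 to 72 H2A.W.6 regions and 7 to 29 H2A.W.7 regions of 5 kb or more in centromeric parts of 4.5 to 5.9 Mb. Those parts are longer than the 3.7 Mb of the span, and the counts are not scaled to length. Of the 68 long H2A.W.6 regions, 63 lay in the core, 63 met a pseudogene or a transcribed pseudogene, 11 met a protein-coding gene and 4 met no annotated gene.

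The longest H2A.W.6 region was chromosome 4, 3974431 to 4007580, with a length of 33.15 kb, of which 95.8% also had H2A.W.7, in 9 regions. It met the pseudogenes AT4G06710, AT4G06712, AT4G06714 and AT4G06716. The longest H2A.W.7 region, 3965536 to 3987265, ran into it from the left, with H2A.W.6 on 99.8% of its 21.73 kb, and the third longest H2A.W.6 region, 3961856 to 3974385, had 95.1% H2A.W.7 over the pseudogene AT4G06708. The fourth longest H2A.W.7 region, 3997966 to 4007595, met no annotated gene. These regions lay within the longest stretch in which every base had at least one of the variants, 3958721 to 4013080, with a length of 54.36 kb, 6 pseudogenes and no protein-coding gene, H2A.W.6 on 99.7% and H2A.W.7 on 92.3% of it. It lies in the 2 bins around 4.0 Mb. No genome sequence was used, so the repeats it holds and reads from near-identical copies elsewhere were not analysed here.

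The second longest H2A.W.6 domain was of another kind. At chromosome 4, 2922631 to 2950015, H2A.W.6 covered 27.385 kb without a break and without any annotated gene, and H2A.W.7 covered 32.0% of it in 19 separate regions. Next to it on the left, 2910561 to 2922545, H2A.W.6 covered 11.985 kb over the pseudogenes AT4G05595, AT4G05597, AT4G05600 and AT4G05610, with 69.6% H2A.W.7. Both belong to a stretch of 39.455 kb, 2910561 to 2950015, with 99.8% H2A.W.6 and 43.6% H2A.W.7. Among the 5 longest unbroken runs of H2A.W.6 without H2A.W.7, 4 lay within 2.9 to 3.0 Mb, and the longest, 2923301 to 2926245, had 2945 bp. Across the 68 H2A.W.6 regions of 5 kb or more the H2A.W.7 share ran from 29.2% to 99.9% with a median of 78.7%, 32 of them had 80% or more and 8 had under 50%. The lowest was 3457751 to 3463435 at the pseudogene AT4G06554, and the gene-free domain of 27.385 kb was next.

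**Figure D2:**
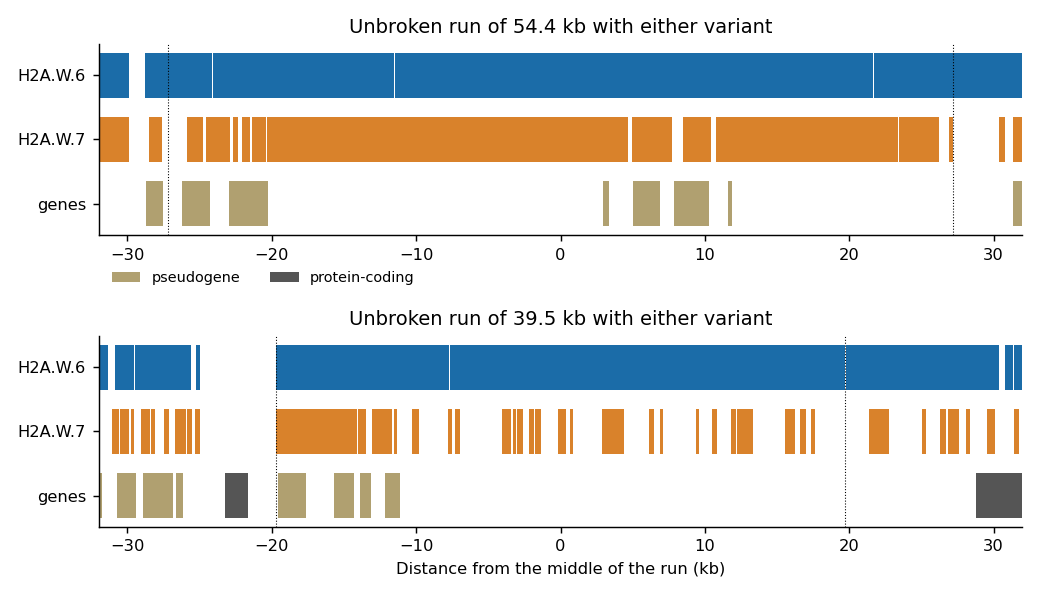
Regions of H2A.W.6 and H2A.W.7 and bodies of pseudogenes and protein-coding genes around the 2 longest stretches in which every base had at least one variant, against the distance from the middle of the stretch in kb (dotted lines, its ends). In the stretch of 54.36 kb H2A.W.7 is nearly as continuous as H2A.W.6 (92.3% and 99.7%), and in the stretch of 39.455 kb it is broken into short pieces (43.6% and 99.8%). A stretch can end at a break too narrow to see.

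Of the 10 longest H2A.W.6 domains, the others carried H2A.W.7 over most of their length. At 3054296 to 3066205 the H2A.W.7 share was 98.4%, and both variants began at the same base. That domain met the pseudogene AT4G06477 and the RNA genes AT4G05175, AT4G05185 and AT4G05195, all 3 covered over 100% of the body by both. At 4722366 to 4733455 the share was 91.8%, with the pseudogenes AT4G07920 and AT4G07931 and the protein-coding gene AT4G07932. At 3706591 to 3717210 it was 94.7%, with AT4G06608, AT4G06609 and AT4G06610. At 3784311 to 3794270 it was 99.4%, with AT4G06640 and AT4G06642, and at 3392101 to 3401485 it was 86.3%, with AT4G06621, AT4G06623 and AT4G06546. The domain 5524256 to 5535105, with 5 pseudogenes from AT4G08650 to AT4G08660 and a share of 87.8%, was the only one of the 10 longest outside the core.

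The other long H2A.W.7 regions lay almost whole in H2A.W.6. The region 3676911 to 3692045, of 15.135 kb, had 98.4% H2A.W.6 and met 4 pseudogenes from AT4G06602 to AT4G06605. Those at 3106441 to 3112300 (AT4G06488), 3950501 to 3956030 (AT4G06700) and 3396111 to 3401235 (AT4G06546) had 99.8%, 100% and 100%. At 5581516 to 5586655, in the right flank, an H2A.W.7 region with 100% H2A.W.6 met the pseudogene AT4G08750 and the protein-coding gene AT4G08760.

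H2A.W.7 lay inside H2A.W.6 more often than the reverse. Of the 2711 H2A.W.7 regions, 1687 or 62.2% lay whole inside one of H2A.W.6, and of the 1890 H2A.W.6 regions 309 or 16.3% lay whole inside one of H2A.W.7. Shorter H2A.W.7 regions (median 430 bp against 620 bp) and the wider cover of H2A.W.6 (61.7% against 46.0%) both favour this order. How often regions lay whole inside the other variant over all centromeric lists was not analysed here. Counting any shared base (1 bp), 79.2% of the H2A.W.6 regions met H2A.W.7 (1496 of 1890, 95% interval by Wilson's method 77.3 to 80.9) and 90.1% of the H2A.W.7 regions met H2A.W.6 (2443 of 2711, 88.9 to 91.2). The same shares over all centromeric lists were 78.7% and 90%, close to those of the span. With an overlap of 50% of both regions the order turned, to 33.0% and 22.98%, as it did after merging across gaps of 1000 bp, to 93.6% and 84.6%. Intervals cover counting error only and treat neighbours as independent, although regions of one domain are not.

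Short regions were more often without the other variant than long ones. Contact with H2A.W.7 was made by 57.2% of the H2A.W.6 regions of 200 to 300 bp, by 78.9% of those of 500 to 1000 bp and by 68 of the 68 of 5 kb or more. For H2A.W.7 the same lengths gave 81.8%, 94.5% and 12 of 12. A longer region has more room to meet another, and region numbers depend on small breaks, since a gap of 5 bp, the grid of the lists, followed 16.6% of the H2A.W.6 regions, and for H2A.W.7 8.23%.

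Regions with no base of the other variant numbered 394 for H2A.W.6, with a median length of 355 bp, and 268 for H2A.W.7, where that median was 297.5 bp. Those of H2A.W.6 lay mostly in the core, at 309 of 394, but so did all H2A.W.6 regions, at 1404 of 1890. Those of H2A.W.7 lay mostly in the flanks, with 57 in the left flank, 57 in the core and 154 in the right flank, or 142.5, 24.8 and 154 per Mb. All H2A.W.7 regions numbered 122, 2046 and 543 in that order. In the core 83.4% of the bases had H2A.W.6, which leaves little room there for H2A.W.7 without it. A single H2A.W.6 region was a median of 300 bp from the nearest H2A.W.7 region, and 2 were over 5 kb away. A single H2A.W.7 region was a median of 870 bp from the nearest H2A.W.6 region, and 44 were over 5 kb away, the farthest 21.66 kb.

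The longest such H2A.W.6 region, chromosome 4, 3585341 to 3587535, lay at the pseudogene AT4G06585. Those at 4347976 to 4349780 and 3045386 to 3046940 met no annotated gene, and those at 2848161 to 2849635 and 4698606 to 4700065 met the pseudogenes AT4G05581 and AT4G07874. For H2A.W.7 the longest, 5743071 to 5744995, met the pseudogenes AT4G08953 and AT4G08956. Those at 2814626 to 2815900, 5292891 to 5294165 and 2639576 to 2640735 lay outside annotated genes, and the one at 5782686 to 5783925 met AT4G09012 and a small part of ISA3, which encodes a starch-debranching isoamylase. All 5 longest H2A.W.6 regions of this kind were in the core, and 4 of the 5 of H2A.W.7 were in the flanks.

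Pseudogenes were nearly all in H2A.W.6 and to a varying extent in H2A.W.7. The rule for a covered gene was that regions took up at least 50% of its length. H2A.W.6 covered 472 of the 493 pseudogenes of the span (95.7%, 93.6 to 97.2), and H2A.W.7 covered 333 (67.5%, 63.3 to 71.5). The shares over all 5 centromeric parts were 93.0% and 65.9%, and those of the other 4 chromosomes ran from 90.8% to 94.6%, just under the value here, and from 63.3% to 68.9%. Both variants covered 326, H2A.W.6 alone 146, H2A.W.7 alone 7 and neither variant 14. Any base was present in 482 and 477 of them, so the gap between the variants was in how much of a body was covered, with medians of 99.3% and 69.8%.

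The share covered by H2A.W.7 differed with pseudogene length. Below 1 kb, H2A.W.6 covered 103 and H2A.W.7 covered 93 of 114 pseudogenes. From 2 to 4 kb the counts were 159 and 95 of 165, with median shares of 98.9% and 56.3%. At 4 kb or more they were 82 and 59 of 83. In these 83, mean H2A.W.7 cover was 72.9% in the outer 500 bp of both ends and 63.9% between them, while for H2A.W.6 it was 95.4% and 93.3%. The ends had the larger share in 51 of the 83 for H2A.W.7 and in 51 for H2A.W.6.

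Among pseudogenes of 1 kb or more, the strongest leaning to H2A.W.6 was in AT4G07795 (99.6% of the body against 0%), AT4G06625 (99.0% against 0%), AT4G08132 (93.5% against 0%), AT4G07415 (98.3% against 4.94%) and AT4G07874 (92.6% against 0%). Differences in the other direction were smaller. AT4G09565 had H2A.W.6 on 51.7% and H2A.W.7 on 93.0% of its body. AT4G08860 had 0% and 39.8%, AT4G07830 had 0% and 26.9%, AT4G07507 had 22.8% and 43.2%, and AT4G09455 had 85.2% and 93.1%. The 39 transcribed pseudogenes were covered less often, 25 by H2A.W.6 and 21 by H2A.W.7, which is 64.1% and 53.8% against 58.7% and 51.2% over all centromeric parts.

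**Figure D3:**
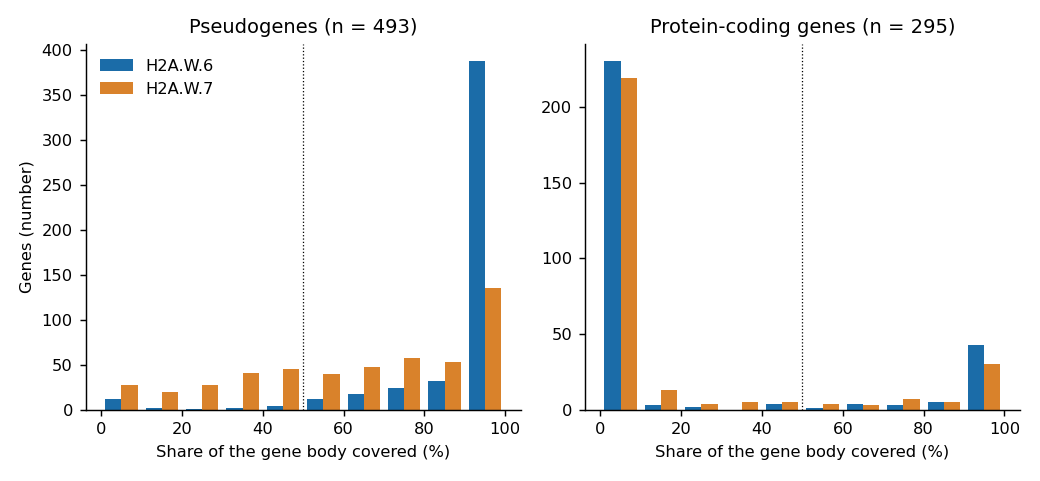
Number of pseudogenes (left) and protein-coding genes (right) of the span by the share of the gene body with H2A.W.6 and that with H2A.W.7, in classes of 10 percentage points (dotted line, the limit of 50%). Pseudogenes are concentrated in the highest class for H2A.W.6 (387 with 90% or more) and spread over all classes for H2A.W.7 (135 with 90% or more), and most protein-coding genes are in the lowest class for both.

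Protein-coding genes were mostly free of both variants. Of the 295 in the span, H2A.W.6 covered 56 (19.0%, 14.9 to 23.8) and H2A.W.7 covered 49 (16.6%, 12.8 to 21.3). Both shares lay under those of all centromeric parts, 29.6% and 24.3%, and under the lowest of the other 4 chromosomes, 25.9% and 19.4%. In the adjoining part with the knob they were lower still, at 15.1% and 11.8% of 119 genes. No base of either variant lay in 190 genes, or 64.4%, against 56.3% over all centromeric parts. In the core H2A.W.6 covered 30 and H2A.W.7 covered 23 of 60, in the left flank 3 and 6 of 86, and in the right flank 23 and 20 of 149. Most protein-coding genes of the span were thus in the thinly covered flanks.

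Both variants covered the same 42 protein-coding genes, whose bodies were short, with a median of 733 bp against 2118 bp for the 232 that neither covered. The highest summed cover in genes of 1 kb or more was in AT4G08593, with H2A.W.6 on 99.6% and H2A.W.7 on 98.2%, and in AT4G08691, with 99.2% and 97.3%. The next were AT4G09360, AT4G06479, AT4G07740, AT4G08260, AT4G06688, AT4G06526, AT4G05080 and AT4G08097, with 98.4% to 100% and 89.7% to 97.6%. The table used gives these loci no name beyond the identifier. Genes in which transposon-derived reading frames are annotated as protein-coding could not be told apart from other genes by that table.

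Of the 56 genes covered by H2A.W.6, 14 were not covered by H2A.W.7. AT4G08410 had 70.3% and 0%, AT4G08400 had 68.7% and 0%, and AT4G08430 had 87.5% and 18.9%, all in the right flank. In the core, AT4G07526 had 83.1% and 15.0%, and AT4G05555 had 98.6% and 33.7%. Covered by H2A.W.7 alone were 7 genes, 3 in the left flank and 4 in the right, with a median length of 423 bp. CRP4, named as a cysteine-rich peptide in the gene table and singled out after its values were seen, had H2A.W.7 on 100% and H2A.W.6 on 0% of its body. Among genes of 1 kb or more the largest differences towards H2A.W.7 were AT4G09070 (0% and 54.2%), AT4G08869 (0% and 47.0%), AT4G09490 (0% and 30.1%), AT4G09012 (0% and 24.7%) and AT4G08670 (0% and 18.1%), all in the right flank.

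Among the RNA genes, H2A.W.7 covered more of the lncRNA and miRNA genes than H2A.W.6 did, and fewer of those of the class misc_RNA. Numbers were small, and the Wilson intervals of the variants overlapped in each class, as with 18.8 to 81.2 (H2A.W.6) and 43.6 to 97.0 (H2A.W.7) for miRNA. Of 58 lncRNA genes, H2A.W.6 covered 11 and H2A.W.7 covered 16, or 19.0% and 27.6%, against 33.5% and 39.2% over all centromeric parts. Of 6 miRNA genes, H2A.W.6 covered 3 and H2A.W.7 covered 5, where all centromeric parts had 53.5% and 55.8%. MIR5645b and MIR401 had 100% of both, and MIR5645e had 94.0% and 56.1%. MIR397a, whose miRNA is known to target laccase transcripts, had 0% and 66.4%, MIR405d had 0% and 100%, and MIR5660 had 0% of both. The miRNA genes have 86 to 494 bp, less than many single regions. Of 7 misc_RNA genes, among them the 3 in the domain at 3054296 described above, H2A.W.6 covered 4 and H2A.W.7 covered 3, or 57.1% and 42.9%, against 46.5% and 41.6% over all centromeric parts.

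Sequence outside annotated genes made up 50.4% of the span and 48.1% of the H2A.W.6 bases. It made up 51.5% of the H2A.W.7 bases and 83.1% of the bases with H2A.W.7 alone, of which 9.85% were in pseudogenes, transcribed ones included, and 5.83% in protein-coding genes. Bases with H2A.W.6 alone were divided like those with both, with 46.8% and 48.9% in pseudogenes and 49.6% and 47.3% outside genes. The bases with neither variant were 42.2% protein-coding gene bodies, and 85.3% of all protein-coding bases of the span had neither. As H2A.W.6 covered 91.3% of the pseudogene bases, few of these could be found with H2A.W.7 alone. The table holds no transposon annotation, and transposons not listed as genes count as outside genes.

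The 69 gaps with neither variant of 5 kb or more, with 0.561 Mb or 46.1% of all uncovered bases, each met a protein-coding gene. They enclosed 130 of the 295 protein-coding genes whole. By segment, 22 gaps were in the left flank, 7 in the core and 40 in the right flank, and none of the 15 gaps of 10 kb or more was in the core. The flanks are rich in protein-coding genes, with 86 in 0.4 Mb and 149 in 1 Mb. How often other stretches of 5 kb or more meet such a gene was not analysed here. Most other gaps were narrow, with 1082 of all 1772 under 200 bp.

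The longest gap, chromosome 4, 2471846 to 2496775, had 24.93 kb and 4 genes, from PCFS4 to NSF. NSF encodes an ATPase of vesicle fusion, and PDF2, in the same gap, a homeodomain protein of the epidermis. The second, 2735791 to 2755710, had 19.92 kb and 7 genes from AT4G05380 to AT4G05430, with DDB1A, a damaged-DNA binding protein subunit of a ubiquitin ligase, and YAO, a nucleolar protein. The third, 5147436 to 5167270, had 19.835 kb from KNAT1 to AT4G08170, where KNAT1 is a homeobox regulator of the shoot meristem. The fifth, 6016606 to 6028280, ran from AT4G09500 to AT4G09520 around the invertase gene CINV2.

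Gene-bearing gaps also broke the core. The longest there, 4195716 to 4205505, had 9.79 kb and met AT4G07390, VFB3, PCN and AT4G07408, of which VFB3 encodes an F-box protein and PCN a protein needed for embryo development. At 2987901 to 2995310 a gap of 7.41 kb held AT4G05630 and AT4G05631. At 4882786 to 4889270, 6.485 kb met ACS11, a synthase of the ethylene precursor, and at 4802261 to 4808575, 6.315 kb met CSLC12, a cellulose synthase-like gene. Of the 12 longest gaps of the core, 11 met a protein-coding gene, and the one at 4871766 to 4876740 met no annotated gene.

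The fixed lists held 40 well-studied genes, of which 39 lay in the span, and neither variant covered any of the 39. The share of all centromeric protein-coding genes was 29.6% (H2A.W.6) and 24.3% (H2A.W.7). Most of the 39 lay in the flanks, where covered genes are fewer. There H2A.W.6 and H2A.W.7 covered 3 and 6 of 86 protein-coding genes on the left, and 23 and 20 of 149 on the right. Any H2A.W.6 base was present in 1 of the 39 and any H2A.W.7 base in 5. SULTR1;1, a sulphate transporter of roots, had H2A.W.6 on 8.998% and H2A.W.7 on 6.33% of its body. SUB1, a gene of blue light signalling, had 0% and 3.31%, SAPX, a plastid ascorbate peroxidase, 0% and 0.970%, ISA3 0% and 0.327%, and CSLC12 0% and 0.236%. The other 34 had no base of either and lay in gaps of 4.05 to 24.93 kb, with a median of 7.78 kb. Well-studied genes were picked for being known, and how far other genes with leaf expression share this was not analysed here.

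H2A.W.7 came nearer to these genes than H2A.W.6 did. The nearest H2A.W.7 region was a median of 398 bp from the gene and the nearest H2A.W.6 region 2239 bp. H2A.W.7 was nearer in 37 of the 39 genes, H2A.W.6 in 0, with 2 equal. Over all 295 protein-coding genes of the span, H2A.W.7 was nearer in 197 and H2A.W.6 in 28, and the others were equal. Of 10 housekeeping and photosynthesis genes, H2A.W.7 was nearer in 9, with medians of 1050.5 and 3282 bp. UBQ10, a polyubiquitin gene, had H2A.W.7 at 3726 bp and H2A.W.6 at 3986 bp, and UBQ11 had both at 2578 bp. PSBQ-2, a subunit of the oxygen-evolving complex, had H2A.W.7 at 52 bp and H2A.W.6 at 6472 bp, and TL29, a thylakoid lumen protein, at 93 and 4426 bp. The largest gap between the distances was at MFDX1, a mitochondrial ferredoxin, with 1578 and 21588 bp. DDB1A had 2696 and 11578 bp, and GRF1, a 14-3-3 protein, had 1189 and 2239 bp.

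All 12 signalling and development genes had H2A.W.7 nearer, with medians of 382 and 2209 bp. CRY1, a blue light receptor, had H2A.W.7 at 312 bp and H2A.W.6 at 2345 bp. The kinase genes MEKK1, MAPKKK9 and MEKK3, of the MAP kinase cascades, differed, with 240 and 740 bp at MEKK1, 50 and 5270 bp at MAPKKK9 and 452 and 1902 bp at MEKK3. CPK4, a calcium-dependent protein kinase, had 1900 and 2335 bp. EXO, a growth-related extracellular protein, had 1268 and 8173 bp, and MYB74, a transcription factor, had 578 and 4091 bp. KNAT1 lay at an end of its wide gap, with 263 and 273 bp. The locus AT4G08850, given by identifier only, had 1108 and 2083 bp.

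In the list for chromatin, transcription and replication, 6 of 6 genes had H2A.W.7 nearer. SFR6, a Mediator subunit, had H2A.W.7 at 182 bp and H2A.W.6 at 347 bp, GTA2, a transcription elongation factor, 207 and 732 bp, PCN 149 and 274 bp, and ORTHL, a gene of the ORTHRUS family of ubiquitin ligases, 433 and 1338 bp. ATK5, a kinesin, had 398 and 9421 bp and YAO 7141 and 8396 bp. For transport and metabolism it was 10 of 11, with 173 and 7503 bp at the potassium antiporter KEA3, 1052 and 6717 bp at the nucleoside transporter FUR1, 416 and 2106 bp at IBR1 of auxin metabolism and 383 and 793 bp at the allantoinase ALN. The arginase genes ARGAH1 and ARGAH2 had 330 and 3610 bp, and 989 and 1024 bp. NDB2, a mitochondrial NAD(P)H dehydrogenase, had 1301 and 5976 bp, CINV2 had 4238 and 9448 bp, and the locus AT4G08170 had 78 and 1498 bp.

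**Figure D4:**
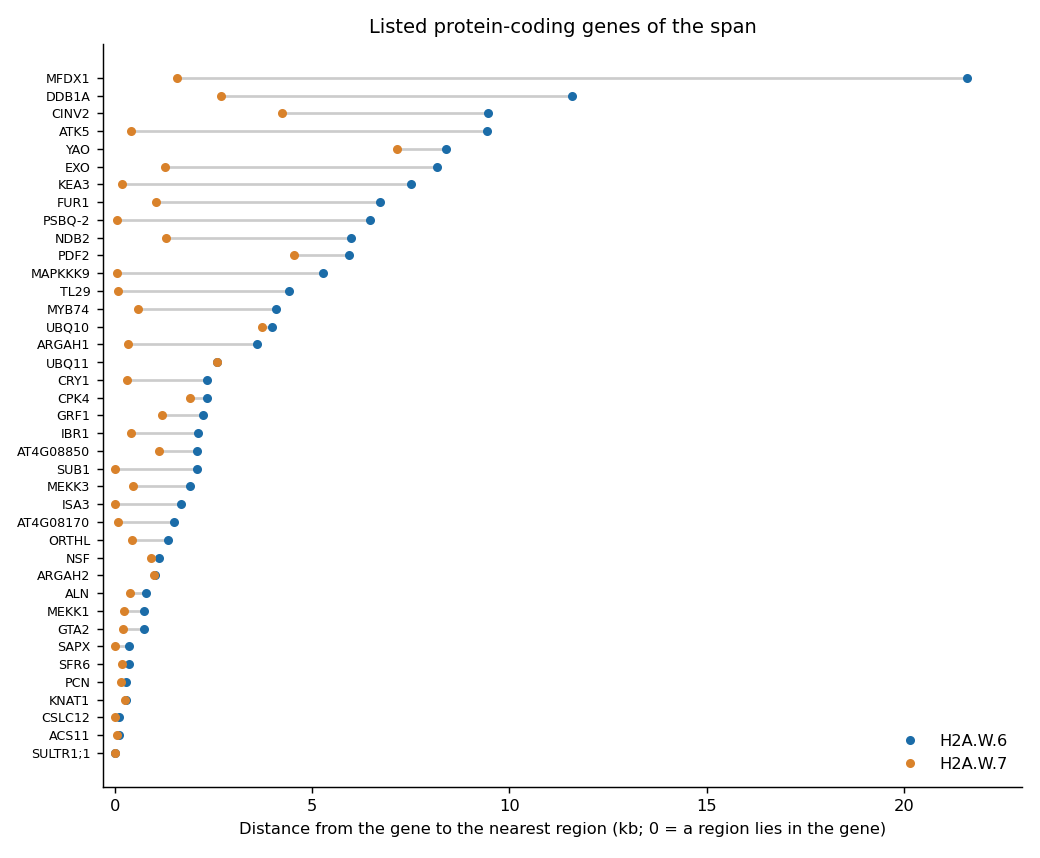
Distance in kb from each of the 39 listed protein-coding genes of the span to the nearest region of H2A.W.6 and of H2A.W.7, ordered by the H2A.W.6 distance (a distance of 0 means that a region lies in the gene). H2A.W.7 is nearer in 37 genes, and the distances are equal in the other 2, UBQ11 and SULTR1;1.

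The same order was seen over all 190 protein-coding genes with no base of either variant, among them 34 of the 39 listed genes. H2A.W.7 was nearer in 165, H2A.W.6 in 17, and 8 were equal, and the median distances were 547.5 and 1710.5 bp in that order. By segment, H2A.W.7 was nearer in 65 of 71 genes in the left flank, 20 of 22 in the core and 80 of 97 in the right flank. H2A.W.7 covered more sequence than H2A.W.6 in the flanks and less in the core. Its median distance in the core was 434.5 bp against 839.5 bp. H2A.W.7 had more regions than H2A.W.6, also in the core, with 2046 against 1404, and more regions can bring the nearest one closer. With its list reduced to the 1890 longest regions, as many as for H2A.W.6, H2A.W.7 was nearer in 160 genes and H2A.W.6 in 22. That reduction matched the number over the span, and the core was not counted apart with it. Why H2A.W.7 lay nearer was not tested.

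Cover outside these genes showed where the variants parted. Over the 17 of them in the core with 1 kb or more, H2A.W.7 covered 4.40% and H2A.W.6 3.41% of the first 250 bp beyond the gene edges. Between 500 and 750 bp H2A.W.7 covered 39.6% and H2A.W.6 13.3%, and between 1000 and 1250 bp they covered 44.5% and 25.5%. Between 2000 and 2250 bp the values were 44.4% and 45.1%, and in the last step, to 5000 bp, 45.2% and 72.8%. H2A.W.7 cover was thus similar in the steps just beyond 1 kb and just before 5 kb. Between them it varied from 39.5% to 57.4% over these 17 genes. H2A.W.6 cover was still larger in the last step than at 2 kb. In the left flank, with 57 genes, H2A.W.7 covered 23.2% and H2A.W.6 3.17% between 500 and 750 bp, and in the right flank, with 76 genes, 26.4% and 9.71%. The genes were chosen for holding no base of either variant, which fixes the low values at the edge for both but not their order.

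**Figure D5:**
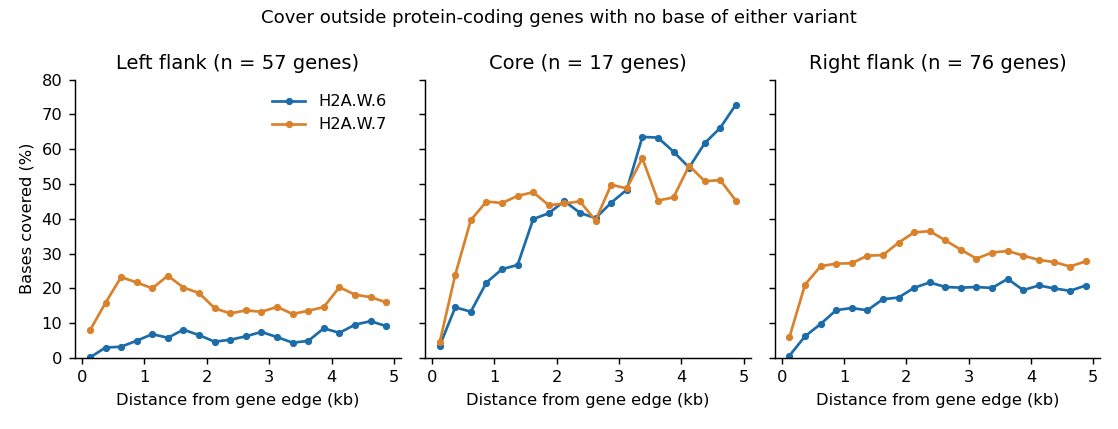
Bases covered by H2A.W.6 and H2A.W.7 (percent) in steps of 250 bp outside both edges of protein-coding genes of 1 kb or more with no base of either variant, against the distance from the gene edge in kb, for the left flank (57 genes), the core (17) and the right flank (76). H2A.W.7 lies above H2A.W.6 in all steps of both flanks, and in the core it lies above up to 2 kb and below in the last step (45.2% and 72.8%).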

How the data were processed

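The authors deposited, for each immunoprecipitation, 1 list of enriched regions for the chromosome arms and 1 for the centromeric part, with a chromosome, start and end and no height or score. The submitters' processing notes name TAIR10 and bedtools. Not given in the sources used here are the aligner, the peak caller with its threshold, and how the control was scaled. Sequencing depth or the threshold alone could make one list longer than the other. Starts and ends of the members lie on a grid of 5 bp, and the shortest member has 200 bp.

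Members, lists and divisions were chosen with earlier results of these data known. Cover, overlaps and gaps were computed per base in Python 3.11.15 with numpy 2.4.6 and pandas 2.3.3, and tested on simulated lists. Printed positions count the first base as 1, so each deposited start was raised by 1. Genes came from a RefSeq table of TAIR10.1, with no coordinate printed. As its build name differs, it was moved along the chromosome by up to 10000 bp, and mean H2A.W.6 cover of the span's pseudogenes was highest, 90.9%, with no shift. A gene belonged to the span by its midpoint. The table has no strand, exons or transposons, and no genome sequence was used, so no sequence is shown.

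Named were the members of 4 fixed gene lists, genes at the 10 longest regions of each variant and at the 5 longest without the other, per class the 5 genes (1 kb or longer) that differed most each way, the 10 protein-coding genes with the largest summed cover, and the first and last gene of the 5 longest gaps, of which the fourth is not reported here. Other named genes (in the gaps of the core, CRP4, the lncRNA and miRNA genes) were chosen after their values were seen.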

Additional observations from a re-analysis of the deposited data

How the results depend on the processing

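Each value comes from 1 library per variant, so these alternatives show how far it depends on the lists' breaks and limits, not how it would repeat, and the depth behind the lists is unknown. For 13 results 51 alternative values were computed. A share of regions meeting the other variant counted as moved when it left its Wilson interval. Any other value, gene counts included, counted as moved when it changed by over 1.5 times. This was so for 11 of the 51 and not for 40. Values within that wide limit still changed. With regions of 500 bp or more and after merging across 1000 bp, H2A.W.7 covered 238 and 406 pseudogenes. Its cover was then 32.4% and 61.6% of the span, and the Jaccard index 0.449 and 0.757. Pseudogenes covered by H2A.W.7 were 135 at a limit of 90% of the body, and protein-coding genes covered by H2A.W.7 were 94 with any base and 30 at 90%. The shares of H2A.W.6 and H2A.W.7 regions that meet the other variant were 63.4% and 85.6% with regions of 500 bp or more, 93.6% and 84.6% after merging across gaps of 1000 bp, 63.6% and 87.5% with 50% of the region covered, and 33.0% and 22.98% with 50% of both regions. The ratio of covered length stayed below 1, from 0.589 with regions of 500 bp or more to 0.894 after merging across 1000 bp. With any base counted, the order of covered protein-coding genes turned, to 73 (H2A.W.6) and 94 (H2A.W.7), and after that merging both were 59. H2A.W.7 was the nearer variant in 172 of 190 genes with regions of 500 bp or more. This alternative and the reduced H2A.W.7 list were chosen after seeing the data. No paired analysis was possible because each variant has 1 library and no result comes from a test.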
